A study of Homo sapiens with 4 samples.

Results

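Gene expression in HK1EBV cells was set against that in HK1 cells, both kept in vehicle alone. HK1 is an established line from a squamous carcinoma of the nasopharynx. By its name HK1EBV is the line with Epstein-Barr virus, while the labels say of both lines only that they came from nasopharyngeal carcinoma. Both cultures had received 0.1% dimethyl sulfoxide (DMSO) for 24 h and no drug. Of the 4 expression arrays of the study, 2 entered the comparison, HK1 with DMSO and HK1EBV with DMSO. The other 2 arrays, of the same lines after 24 h with 110 µM caffeic acid phenethyl ester (CAPE), a compound of propolis, gave a separate reading of the line difference. Members were all genes with a probe set naming that gene alone, read from the brightest such probe set, whose mean over the 4 arrays was at or above the 25th percentile of all probe sets. This kept 15194 of 18323 genes, and CYP4Z1, with the dimmest mean kept, lay beside CCDC140, the brightest left out, both at a mean of 0.997. Each group had 1 array, so no difference had a replicate check and none was tested. The labels do not say whether HK1EBV is 1 clone or a pool. Presence of the virus cannot be told apart here from any other difference between the lines or between the cultures.

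Epstein-Barr virus is a herpesvirus found in the tumour cells of most undifferentiated nasopharyngeal carcinomas, where it persists in a latent form. Latent products of the virus are known to act on NF-κB, JAK-STAT and interferon signalling and on antigen presentation, so genes of these pathways were described beside those of epithelial identity, metabolism and growth. The values were taken as log2 levels, the scale RMA gives, on which a difference of 1 is a 2-fold ratio. The deposit does not state the base, and every ratio below rests on it. Every difference below is HK1EBV minus HK1. Levels were compared between arrays and not between genes.

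Both arrays had the marker genes of a squamous epithelium. The 5 epithelial markers measured stood between 7.61 and 9.49 on the HK1 array and between 7.85 and 10.3 on the HK1EBV array. Their summed log2 levels were 43.2 and 45.1. KRT5 and KRT14, the keratins of basal cells, were higher in HK1EBV by 0.76 and 0.86. All 7 B cell markers lay at or below 2.17 on both arrays, with the Epstein-Barr virus receptor gene CR2 at 0.446 on each. Fibroblast markers reached at most 3.50, endothelial markers 1.56 and airway markers 2.33. Among 8 leukocyte markers CD68, a lysosomal protein gene, stood at 7.28 and 7.88, and the other 7 at or below 2.26.

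With DMSO, 136 genes were at least 2-fold higher in HK1EBV and 148 at least 2-fold lower. These were 0.895% and 0.974% of the genes compared, 1.87% together. The counts of every list below are to be read beside these shares, and a single gene weighs heavily in a short list. The median difference of all genes was 0.01, the middle 95% lay between -0.73 and 0.72, and 52.2% of genes were above 0. A ratio of at least 4-fold was reached by 12 genes higher and 10 lower. In 13 genes counted as 2-fold apart, 1 of the DMSO arrays lay below the filter level, in 11 of them the HK1 array and in 2 the HK1EBV array. Of the 3799 dimmest genes 0.421% were 2-fold apart, against 2.05% of the 3799 brightest. In bulk RNA a change in the share of cells that express a gene and a change per cell cannot be told apart.

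The CAPE arrays shared no array with this comparison, although all 4 were processed together. On them 141 genes (0.928%) were at least 2-fold higher in HK1EBV and 171 (1.13%) lower. Of the genes 2-fold higher with DMSO, 133 of 136 were also higher with CAPE, and 146 of 148 of the lower ones were lower. Both pairs of arrays gave at least 2-fold for 58 genes higher, which is 42.6% of the DMSO list and 41.1% of the CAPE list. For genes lower the number was 83, or 56.1% and 48.5%. None (0) was 2-fold apart in opposite directions. The genes 2-fold higher with DMSO had a median difference of 1.24 there and of 0.91 with CAPE, and the lower ones -1.23 and -1.07. The DMSO values chose these genes, so smaller differences with CAPE can come from that choice alone. Over all genes, which are not independent replicates, the differences of both pairs correlated at r = 0.64 and 64.8% had the same sign.

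**Figure D1:**
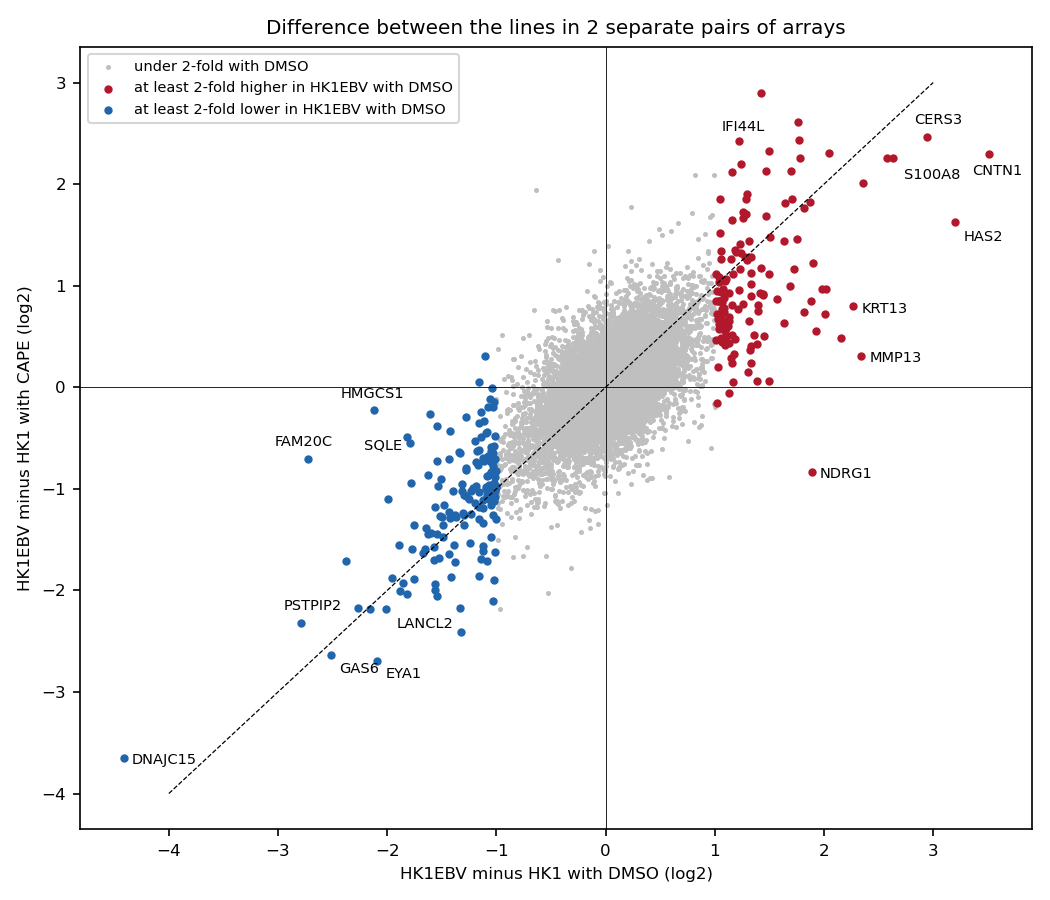
Difference between the lines in log2 units with DMSO (horizontal axis) and with CAPE (vertical axis), 1 point per gene, for 15194 genes, with the dashed line marking equal differences. DNAJC15 and CNTN1 lie farthest out, with one sign in both pairs. With CAPE, HMGCS1 and MMP13 lie near 0, FAM20C stands at -0.70 against -2.73 with DMSO, and NDRG1 has the other sign.

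The gene highest in HK1EBV was CNTN1, for contactin 1, an adhesion protein anchored in the membrane of neurons. It stood at 0.67 in HK1 and 4.18 in HK1EBV with DMSO, and at 0.86 and 3.15 with CAPE, so both HK1EBV arrays lay above both HK1 arrays. The difference as measured was 3.51, or 11.4-fold. Both HK1 values lay below the filter level, against which HK1EBV with DMSO was at least 9.06-fold higher. HAS2, a synthase of the matrix polymer hyaluronan, stood at 1.28 and 4.48 with DMSO and at 1.41 and 3.03 with CAPE. CERS3, which makes the very-long-chain ceramides of the skin barrier, was at 2.61 and 5.55, a 7.68-fold ratio. Its CAPE difference of 2.47 was close to that with DMSO, 2.94. S100A8, for a calcium-binding subunit of calprotectin, stood at 2.33 and 4.96, and the amino acid transporter gene SLC38A5 at 1.31 and 3.89. Both differed by 2.26 with CAPE. EMP3, an epithelial membrane protein gene, stood at 3.18 and 5.54.

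Most of the other genes among the 15 highest differed by more with DMSO than with CAPE. They were chosen by the DMSO difference, which can by itself make the CAPE difference smaller and a DMSO array the odd one. Whether the pairs differ was not tested. MMP13, a collagenase gene, was at 5.19 in HK1 and 7.53 in HK1EBV with DMSO, and at 7.54 and 7.85 with CAPE. The HK1 DMSO array was thus the low one of 4. KRT13, a keratin of the upper layers of moist stratified epithelium, was at 4.01 and 6.28 with DMSO and at 3.88 and 4.68 with CAPE, where HK1EBV DMSO was the high one. MMP12, an elastase gene, was at 0.73, below the filter level, and 2.89, against 0.69 and 1.17 with CAPE. FGFBP1, whose product frees fibroblast growth factors from the matrix, was at 6.07 and 8.08, against 5.90 and 6.62. TUFT1, CEL, a lipase gene, and NMUR2, a neuropeptide receptor gene, differed by 2.02, 1.98 and 1.92 with DMSO and by 0.97, 0.97 and 0.56 with CAPE. NRSN2 differed by 2.04 and 2.31. The transcription factor gene SOX2, of basal and stem-like epithelial cells, was at 4.20 and 6.10, a ratio of 3.74-fold, and at 3.32 and 4.54 with CAPE. All 15 had the same sign with CAPE, and 8 reached 2-fold there.

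The lowest gene in HK1EBV was DNAJC15, on chromosome 13, for a co-chaperone of the mitochondrial inner membrane. It stood at 4.97 in HK1 and 0.56 in HK1EBV with DMSO, and at 4.24 and 0.59 with CAPE. The difference as measured was -4.41, or 21.3-fold. Both HK1EBV values lay below the filter level, and set against that level HK1EBV with DMSO was at least 15.7-fold lower. PSTPIP2, on chromosome 18, for a protein that shapes membrane and actin, was at 4.23 and 1.44, or 6.93-fold lower. GAS6, on chromosome 13, for the ligand of the TYRO3, AXL and MERTK receptors, was at 5.20 and 2.68. With CAPE it was at 5.00 and 2.36, so both pairs gave nearly one ratio. ADAMTS1, a protease gene of proteoglycan turnover, stood at 5.15 and 2.88, and EYA1, a transcriptional coactivator gene of ear and kidney development, at 4.89 and 2.80. Their CAPE differences were -2.17 and -2.70.

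FAM20C and HMGCS1, also chosen by the DMSO difference, were farther apart with DMSO than with CAPE, which was not tested. FAM20C, the kinase of secreted proteins, stood at 5.44 and 2.71 with DMSO, and at 3.95 and 3.24 with CAPE. HMGCS1, at an early step of cholesterol synthesis, stood at 7.24 and 5.11, against 4.88 and 4.65. In both genes HK1 DMSO was the high array of 4. PHGDH, the enzyme that opens serine synthesis, was at 6.15 and 3.77 with DMSO and at 6.71 and 5.00 with CAPE. SLCO1B3, an organic anion transporter gene, differed by -2.00 and -1.10. SYTL3, LANCL2, the mechanosensitive channel gene PIEZO2, the peptidase gene BLMH, the adhesion gene TENM2 and SLPI, an inhibitor of leukocyte proteases, differed by -2.15, -2.01, -1.95, -1.89, -1.88 and -1.86. Their CAPE differences lay between -2.19 for SYTL3 and -1.56 for BLMH. All of the 15 lowest had the same sign with CAPE, and 13 reached 2-fold there.

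**Figure D2:**
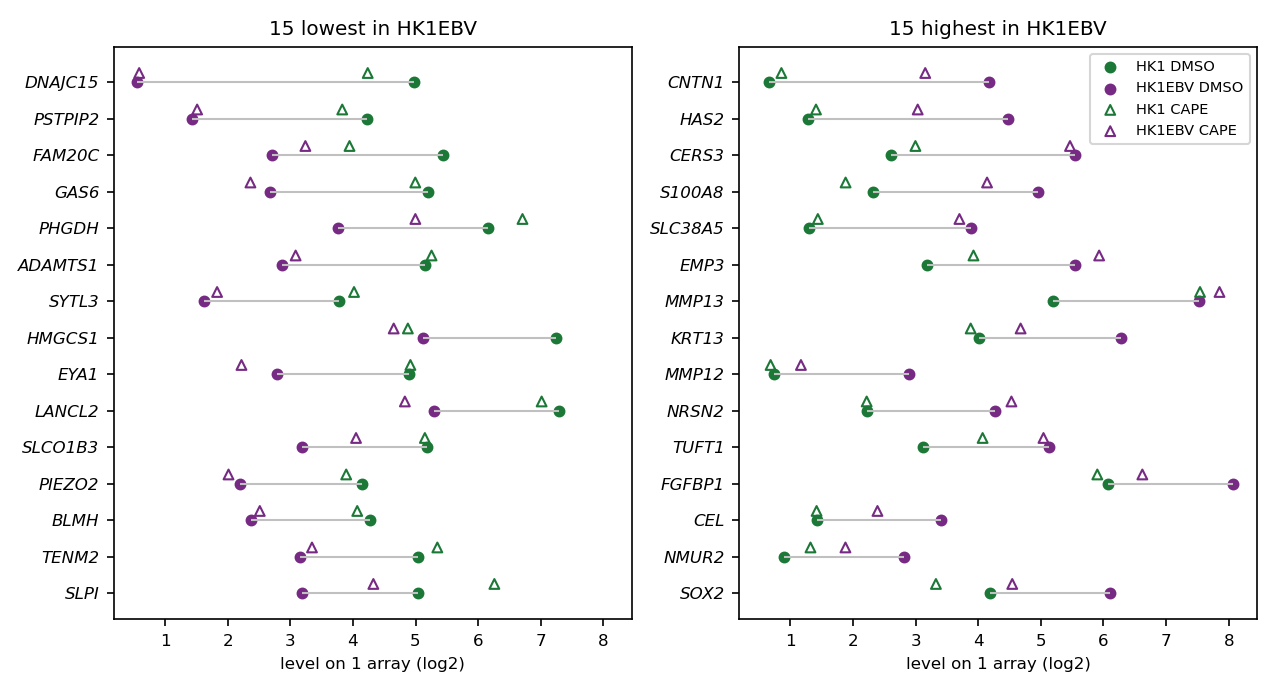
Level on each array in log2 units for the 15 lowest and the 15 highest genes by the DMSO difference, with filled circles for DMSO, open triangles for CAPE, green for HK1 and purple for HK1EBV, and no error bar since each point is 1 array. In DNAJC15, PSTPIP2, GAS6, CNTN1 and CERS3 the symbols separate by line, while in HMGCS1 and MMP13 a DMSO array of HK1 stands apart.

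Genes of the interferon response were higher in HK1EBV as a group. These genes encode antiviral effectors and are switched on by interferons, many of them through a DNA motif called the interferon-stimulated response element. Of 40 list members compared, 6 were at least 2-fold higher and 0 lower, or 15%, against 0.895% of all genes, and 32 were above 0. The list median was 0.38 with DMSO and 0.16 with CAPE, where 8 members were 2-fold higher. IFI6, for a mitochondrial protein that delays cell death, stood at 5.50 in HK1 and 6.97 in HK1EBV, a 2.77-fold ratio. USP18, which takes ISG15 off its targets and dampens interferon signalling, was at 2.42 and 3.71. OAS1, a sensor of double-stranded RNA, was at 2.81 and 4.07, and IFIT1, which binds viral RNA, at 3.97 and 5.21. With CAPE these 4 genes differed by 1.68, 1.91, 1.66 and 2.20, so both HK1EBV arrays were above both HK1 arrays. IFI44L and OASL, named after their values were seen, were the other members past 2-fold, at 1.22 and 1.10. IRF9, likewise, was higher by 0.79, and by 1.71 with CAPE.

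Not every member of the interferon list took part. IFI27, IFIH1, XAF1 and SAMD9L, named after their values were seen, differed by 0.01, 0.02, 0.00 and 0.04. IFITM3 and BST2 differed by -0.11 and -0.15. The promoter letters were read for the 31 members with a promoter in the RefSeq table (GRCh38.p14), over 250 bases before the start of transcription. The core of that motif was read as GAAA, any 2 bases and GAAA again and was searched on both strands. At least 1 promoter held it in 20 of these 31 members (64.5%). The same held for 393 of the 11880 genes compared that had a promoter (3.31%). Counted by promoter and not by gene, 3.02% of all 35116 promoters held it. Members with a match had a median difference of 0.48 and the 11 without one a median of 0.10. Over all 393 genes compared that held a match, the median was 0.03. Whether the motif goes with the line difference was not tested. Among the 4 members past 2-fold that had a promoter, 3 held a match and OAS1 held none in this window. IFIT5 held 2 matches and stood at 3.02 on both DMSO arrays, 1 of the probe sets with an identical value on several arrays, where a small difference may be hidden.

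The promoters of IFI6, IFIT1 and IFI44L are shown because these members were past 2-fold and held the motif, and that of IFIT5 because it held the motif at an identical value on both arrays. Each runs 5′ to 3′ along the gene's own strand and ends before the transcription start, and capitals mark the matches, which read TTTC, 2 bases and TTTC where the motif lies on the other strand. They lie in GRCh38.p14 at chr1:27672193-27672442 on the minus strand for IFI6, and on the plus strand at chr10:89392373-89392622 for IFIT1, chr1:78620198-78620447 for IFI44L and chr10:89414318-89414567 for IFIT5.
IFI6: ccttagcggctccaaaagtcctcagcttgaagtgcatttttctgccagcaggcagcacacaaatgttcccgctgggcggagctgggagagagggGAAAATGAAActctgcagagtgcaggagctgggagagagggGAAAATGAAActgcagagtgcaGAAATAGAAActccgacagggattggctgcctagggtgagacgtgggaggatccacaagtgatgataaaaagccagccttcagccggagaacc
IFIT1: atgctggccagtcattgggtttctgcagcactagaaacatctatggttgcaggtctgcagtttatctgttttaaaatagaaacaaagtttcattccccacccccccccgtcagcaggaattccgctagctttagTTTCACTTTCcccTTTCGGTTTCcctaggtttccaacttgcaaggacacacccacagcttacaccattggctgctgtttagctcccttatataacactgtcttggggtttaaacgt
IFI44L: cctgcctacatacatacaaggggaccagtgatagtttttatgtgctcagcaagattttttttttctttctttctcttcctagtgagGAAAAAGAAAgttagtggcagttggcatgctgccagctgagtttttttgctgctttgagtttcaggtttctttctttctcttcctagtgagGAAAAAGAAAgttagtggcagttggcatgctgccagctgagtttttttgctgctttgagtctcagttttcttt
IFIT5: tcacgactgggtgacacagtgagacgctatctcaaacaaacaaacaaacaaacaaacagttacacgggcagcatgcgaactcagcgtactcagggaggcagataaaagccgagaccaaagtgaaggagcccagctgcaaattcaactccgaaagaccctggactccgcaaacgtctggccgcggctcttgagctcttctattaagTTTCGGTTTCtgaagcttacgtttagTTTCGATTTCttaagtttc
IFI6 holds 3 matches and IFI44L 2, in the gene's own direction. Those of IFI44L, and 2 of the 3 of IFI6, lie inside a stretch that is repeated in the promoter. IFIT1 and IFIT5 hold 2 each, both on the other strand.

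Of the list of class I antigen presentation, by which cells show peptides to cytotoxic T cells, 10 of 17 genes were measured. None (0) was 2-fold apart, 8 were below 0 and the median was -0.40 (-0.33 with CAPE). The peptide-loading chaperone gene TAPBP stood at 6.39 and 5.69, and the trimming peptidase gene ERAP1 at 5.21 and 4.56. Their CAPE differences were -0.71 and -1.18. PSMB10, of the immunoproteasome, and ERAP2 differed by -0.57 and -0.53. Of 6 class II genes, all between 1.07 and 2.05 on both arrays where named, none (0) was 2-fold apart, and HLA-DMA differed by 0.43, HLA-DPA1 by -0.22, CTSS by 0.20 and CIITA by -0.19.

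NF-κB target genes had a median of 0.00 (-0.25 with CAPE), with 0 of 28 at least 2-fold higher and 2 lower. TNFAIP3, the A20 enzyme that shuts NF-κB signalling off, was at 4.63 in HK1 and 3.32 in HK1EBV, and at 5.69 and 4.67 with CAPE. TNFAIP2 was at 4.98 and 3.40, and at 4.98 and 3.27 with CAPE. The subunit gene NFKB1 stood at 6.23 and 5.52, and CD83 differed by -0.42. Of 28 chemokines, cytokines and receptors 0 were higher and 3 lower, with a median of -0.06 (-0.16 with CAPE). CCL20, which draws CCR6-bearing leukocytes, was at 4.58 and 2.98, against 4.65 and 4.39 with CAPE, so HK1EBV DMSO was the low array of 4. IL20RB, a receptor chain gene, was at 5.25 and 3.95, IL1A at 8.57 and 7.55, and the gene of the cytokine LIF at 3.13 and 2.19.

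In the JAK-STAT list 1 of 26 was higher and 1 lower (median -0.05, and -0.21 with CAPE). IL6ST, the receptor chain shared by the interleukin 6 family, stood at 6.11 and 4.54, and at 6.13 and 4.95 with CAPE. STAT4 stood at 1.56 and 2.79, and at 1.56 and 2.88. OSMR, the oncostatin M receptor gene, differed by -0.77, and the kinase gene PIM1 by 0.77. IL6ST and OSMR, and LIF of the cytokine list, were also below 0 with CAPE, at -1.18, -0.93 and -1.07. STAT4 and PIM1 were also above 0 there, at 1.32 and 0.56.

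Genes of cholesterol synthesis were lower in HK1EBV with DMSO as a group. They are driven by the factor SREBP-2 when sterols run low. Of 18 members compared, 0 were 2-fold higher, 5 were 2-fold lower (27.8%, against 0.974% of all genes) and 17 were below 0. The median was -0.65, or 1.57-fold. With CAPE it was 0.05 and 9 members had the same sign, and whether the pairs differ was not tested. SQLE, the epoxidase that commits carbon to sterols, was at 7.60 in HK1 and 5.81 in HK1EBV with DMSO, and at 6.64 and 6.09 with CAPE. MSMO1, a demethylation enzyme, was at 6.83 and 5.67, and at 5.97 and 6.02. CYP51A1 was at 8.07 and 7.03, and at 6.93 and 6.92. In each of them, as in HMGCS1 above, HK1 DMSO was the highest array. STARD4, a sterol carrier gene, was the fifth of the members past 2-fold, at -1.01. The regulator INSIG1, named after its values were seen, differed by -0.64 with DMSO and 1.94 with CAPE.

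Fatty acid synthesis and lipid storage had 0 of 24 higher and 1 lower, at a median of -0.17 (0.12 with CAPE). The elongase gene ELOVL6 stood at 6.23 and 5.12. SCD, the desaturase that makes oleate, was at 8.83 and 7.89 with DMSO and at 7.21 and 7.73 with CAPE. LPIN1, a phosphatidate phosphatase gene, and FABP4 differed by -0.78 and -0.80, and by 0.30 and 0.20 with CAPE. Of 24 sphingolipid genes CERS3 alone was past 2-fold, and the list median was -0.11 (-0.07 with CAPE). The sphingomyelin synthase genes SGMS1 and SGMS2 differed by -0.60 and -0.50, and the ceramidase gene ACER2 by 0.49.

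Squamous differentiation genes had no common direction. Of 36, 2 were higher, KRT13 and SPRR3, and 1 lower, KLK10, with a median of 0.05 (0.02 with CAPE). SPRR3, a cross-linked envelope protein of moist epithelium, was at 1.86 in HK1 and 3.51 in HK1EBV, and at 1.49 and 3.30 with CAPE. KLK10, a kallikrein gene, was at 6.44 and 5.41, and at 6.77 and 4.66. KRT16, a keratin of activated keratinocytes, was at 3.28 and 4.23. Of 14 basal keratinocyte genes 2 were higher and 0 lower (median 0.09), SOX2 and KRT15. KRT15 stood at 7.52 and 8.96, and at 7.03 and 7.94 with CAPE. Among 14 S100 genes only S100A8 was past 2-fold, while 12 were above 0, among them S100A14 at 0.94, S100A2 at 0.78 and S100A3 at 0.46. The S100 median was 0.09.

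Of 24 simple epithelial and airway secretory genes 0 were higher and 2 lower, the antiprotease gene SLPI and LCN2, an iron-scavenging lipocalin gene, at 3.35 and 2.29. ELF3, an epithelial transcription factor gene, differed by 0.80 and KRT80 by 0.58, and the list median was 0.14. In the junction list 0 of 20 were past 2-fold (median 0.01). The desmosomal cadherin genes DSG3 and DSG2, both on chromosome 18, stood at 5.75 and 4.77 and at 6.98 and 6.18. PKP1, a plakophilin gene of the same junctions, was at 5.30 and 6.16, and the tight junction gene MARVELD2 at 4.79 and 4.12. With CAPE DSG3 differed by -1.14 and PKP1 by 0.01.

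Several secreted proteases were far apart between the lines, in both directions. Of 22 metalloproteinases and inhibitors 4 were higher, MMP13, MMP12, MMP10 and MMP1, and 2 lower, ADAMTS1 and ADAM8, or 27.3% against 1.87% of all genes. The median was -0.15. MMP10, a stromelysin gene, was at 3.41 and 4.79 with DMSO and at 4.53 and 4.59 with CAPE. MMP1, an interstitial collagenase gene, was higher by 1.33, and by 0.41 with CAPE. The 4 higher genes lie together on chromosome 11, and none of them (0) reached 2-fold with CAPE. In the urokinase and serpin list 0 of 22 were higher and 3 lower (median -0.08). PRSS8, a membrane serine protease gene, stood at 4.20 and 2.53, PLAU, the urokinase gene, at 5.99 and 4.74, and SERPINB8 at 4.29 and 3.28. SERPINB1 differed by -0.81. With CAPE these 4 differed by -1.64, -1.53, -0.88 and -0.75, the same direction.

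In the mesenchymal and matrix list 2 of 29 were higher and 1 lower (median -0.05). Tenascin C (TNC) stood at 5.48 and 6.66, fibronectin (FN1) at 1.89 and 2.92, and thrombospondin 1 (THBS1) at 8.88 and 7.75. SNAI2, a repressor of epithelial genes, was at 9.51 and 8.60. With CAPE the differences were 0.32, 0.67, -1.62 and -0.91. Of 15 integrins and laminins 0 were higher and 1 lower (median -0.12, and -0.31 with CAPE). The integrin gene ITGAV stood at 5.86 and 4.77, ITGA2 at 8.10 and 7.24 and ITGB8 at 2.90 and 3.60, and the laminin gene LAMB3 at 8.45 and 7.57.

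Of the ligands of the EGF receptor family, HBEGF, NRG1 and TGFA were lower in HK1EBV. Of 13 members of the family list 0 were higher and 3 lower (23.1%, against 0.974% of all genes). The list median was -0.14 (-0.40 with CAPE). HBEGF stood at 5.59 in HK1 and 4.16 in HK1EBV, and at 6.46 and 4.82 with CAPE. NRG1, the ligand of ERBB3, was at 7.39 and 5.97, and at 6.38 and 4.51. TGFA was at 6.65 and 5.64, and at 6.85 and 5.23. In each of them both HK1EBV arrays lay below both HK1 arrays. The feedback inhibitor gene ERRFI1 was at 7.24 and 6.40, and the receptor EGFR at 9.45 and 9.38. Among 23 genes of the FGF, PDGF, MET and TAM systems 2 were higher, FGFBP1 and the ephrin receptor gene EPHA4 at 2.95 and 4.03, and 2 lower, GAS6 and IGFBP7 at 8.41 and 6.64 (median 0.01).

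AP-1 and immediate early genes, many of which growth signals induce through ERK, had 0 of 36 higher and 2 lower, with a median of -0.18 (-0.45 with CAPE). Whether they go with the ligands above was not tested. JUN stood at 5.03 and 3.85, and at 5.49 and 4.52 with CAPE. The ETS factor gene ETV5 was at 4.58 and 3.15, and at 4.71 and 3.48. The AP-1 gene FOSL1 was at 7.57 and 6.73, and ZFP36, whose product degrades cytokine messages, at 2.76 and 3.70. Targets of YAP and TEAD had 0 of 22 higher and 2 lower (median -0.24, and -0.32 with CAPE), CCN1 at 6.16 and 4.88 and TGFB2 at 5.39 and 4.38. DOCK5 differed by -0.86 and RBMS3 by 0.49.

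The TGF-β and BMP list had 1 of 32 higher and 2 lower (median -0.05). The activin antagonist gene FST stood at 5.84 and 4.36, and at 5.03 and 3.68 with CAPE. INHBA, which encodes the activin subunit, was at 2.08 and 3.21 with DMSO and at 3.14 and 3.08 with CAPE. TGFB2 was the other member past 2-fold, and the inhibitor gene SMAD7 differed by -0.85. Of 30 Wnt genes 0 were higher and 1 lower (median -0.09), the receptor kinase gene ROR1 at 4.02 and 2.93, while WNT7B, DKK3 and FZD8 differed by -0.64, 0.63 and -0.45. Of 22 Notch genes 0 were higher and 1 lower (median -0.01), the ligand gene DLL1 at 5.59 and 4.58. The ligand gene JAG1 differed by -0.52, and the targets NRARP and HEY1 by 0.32 and 0.30.

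The unfolded protein and ATF4 list covers genes that supply amino acids and fold proteins under stress. Of 30, 0 were higher and 5 lower (16.7%, against 0.974% of all genes). The list median was -0.35 (-0.06 with CAPE). The lower genes were PHGDH, PSPH, SLC7A1, CHAC1 and STC2. Of these SLC7A1 lies on chromosome 13 and PSPH in the stretch of chromosome 7 described below. PSPH, the last enzyme of serine synthesis, stood at 8.54 and 6.89, and at 8.10 and 6.71 with CAPE, and its dimmer probe set gave -1.46 beside -1.65. SLC7A1, an arginine transporter gene, was at 7.80 and 6.43. CHAC1, which breaks down glutathione, was at 5.64 and 4.36 with DMSO and at 6.36 and 6.07 with CAPE. STC2 differed by -1.16 and -1.86. ASNS, the asparagine synthetase gene, was at 7.34 and 6.36 with DMSO and at 7.57 and 7.94 with CAPE.

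Aldo-keto reductases and aldehyde dehydrogenases, enzymes that clear reactive carbonyls, had 4 of 18 higher (22.2%, against 0.895% of all genes) and 0 lower. The list median was 0.32 (0.13 with CAPE). AKR1B10 stood at 0.79 in HK1 and 2.60 in HK1EBV, below the filter level in HK1, and at 1.84 and 2.58 with CAPE. ALDH2, the mitochondrial acetaldehyde enzyme, was at 1.80 and 3.27, and at 2.22 and 4.34. AKR1C3 was at 3.93 and 5.23, and at 5.97 and 7.22, but its paralogs are close in sequence, so its own share is uncertain. ALDH1A1, a retinaldehyde enzyme, was at 1.51 and 2.57. Of 27 NRF2 and thiol genes 0 were higher and 1 lower (median 0.06), the cystine transporter gene SLC7A11 at 7.44 and 6.16. GCLM, of glutathione synthesis, was at 4.43 and 5.38, and NFE2L2, the NRF2 gene, and ABCC3 differed by -0.53 and -0.51.

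Of 32 hypoxia and glycolysis genes 1 was higher and 0 lower (median 0.09, and -0.29 with CAPE). NDRG1, a stress-induced gene of this list, was at 5.94 in HK1 and 7.82 in HK1EBV with DMSO, and at 9.29 and 8.46 with CAPE. The HK1 DMSO array was the lowest of 4 and the HK1 CAPE array the highest. The enolase gene ENO2 was at 2.52 and 3.39, and at 4.51 and 4.14, while VEGFA and GPI differed by -0.82 and 0.70. Oxidative phosphorylation had 0 of 26 past 2-fold, with 20 above 0 and a median of 0.26 (0.15 with CAPE). SDHA stood at 6.76 and 7.35, NDUFA1 at 6.38 and 6.93, NDUFB3 at 2.15 and 2.68, and ATP5F1A, on chromosome 18, at 7.66 and 7.12.

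Retinoid genes had 0 of 15 higher and 1 lower (median 0.01), DHRS9, a retinol dehydrogenase gene, at 6.50 and 5.17, and at 7.40 and 5.23 with CAPE. RAI14, CRABP2 and CYP26A1 differed by -0.63, 0.43 and 0.21. Of 16 aryl hydrocarbon receptor and xenobiotic genes 0 were higher and 1 lower (median 0.03), CYP4F11 at 6.01 and 4.78. CYP1A1, the classical target of that receptor, was at 1.39 and 2.36, and CYP2S1 and CYP1A2 differed by 0.69 and 0.46. Of 13 metallothionein and zinc genes 0 were past 2-fold (median 0.05). The zinc transporter genes SLC39A6, SLC30A1 and SLC39A14 differed by -0.89, -0.62 and -0.50, and MT1X, 1 of several near-identical copies, by 0.32.

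Of 39 mitotic genes in the G2/M list, 0 were past 2-fold and 31 were above 0, with a median of 0.26 with DMSO and 0.25 with CAPE. AURKB, a kinase of chromosome segregation, was at 5.82 and 6.44, PTTG1, or securin, at 5.69 and 6.30, and the kinesin gene KIF20A at 5.94 and 6.54. CCNA2 was the member farthest below 0, at 7.18 and 6.38. Of 39 G1/S genes 0 were higher and 1 lower (median 0.08, and -0.15 with CAPE). CCND2, a D-type cyclin gene, was at 3.31 and 2.25, and CDC45, UNG and TYMS differed by 0.86, 0.63 and -0.62. TYMS lies on chromosome 18.

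The list of kinase inhibitors and p53 targets had 0 of 30 higher and 1 lower (median -0.07), the death receptor gene TNFRSF10B at 5.74 and 4.71. PMAIP1, or NOXA, on chromosome 18, was at 4.78 and 3.82, and RB1, on chromosome 13, at 6.84 and 5.89. TP53I3 differed by 0.88. Of 31 apoptosis regulators 1 was higher and 0 lower (median -0.03). This was TNFSF10, which encodes the ligand TRAIL, at 3.90 and 5.79, and at 5.35 and 6.20 with CAPE. TNFRSF10A, a receptor of TRAIL, was at 6.08 and 5.25, so the ligand was higher while both receptor genes named were lower. BMF differed by 0.98 and APAF1 by -0.57.

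Of 35 replication-dependent histones 0 were past 2-fold, with a median of -0.15 with DMSO and 0.47 with CAPE. Their messages are near-identical copies, so single values such as H4C13 at -0.66, H3C12 at -0.56, H2AC12 at -0.53 and H2AC13 at -0.52 are uncertain. Ribosome biogenesis had 0 of 27 past 2-fold (median -0.08, and -0.27 with CAPE), with FBL at 0.73 and WDR43, WDR12 and DDX21 at -0.58, -0.55 and -0.50. Of 28 DNA methylation and polycomb genes 0 were higher and 1 lower (median -0.03). TET3, an enzyme that oxidises methylcytosine, was at 4.55 and 3.54, TET2 at 4.76 and 4.05, MBD1 at 5.15 and 4.49 and SUZ12 at 6.50 and 5.91. Of 8 cancer-testis antigens 1 was higher and 0 lower (median 0.09), MAGEA4 at 2.24 and 3.31, while MAGEA10, CTAG2 and PAGE1 differed by 0.42, 0.23 and -0.19. These families too hold close copies.

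**Figure D3:**
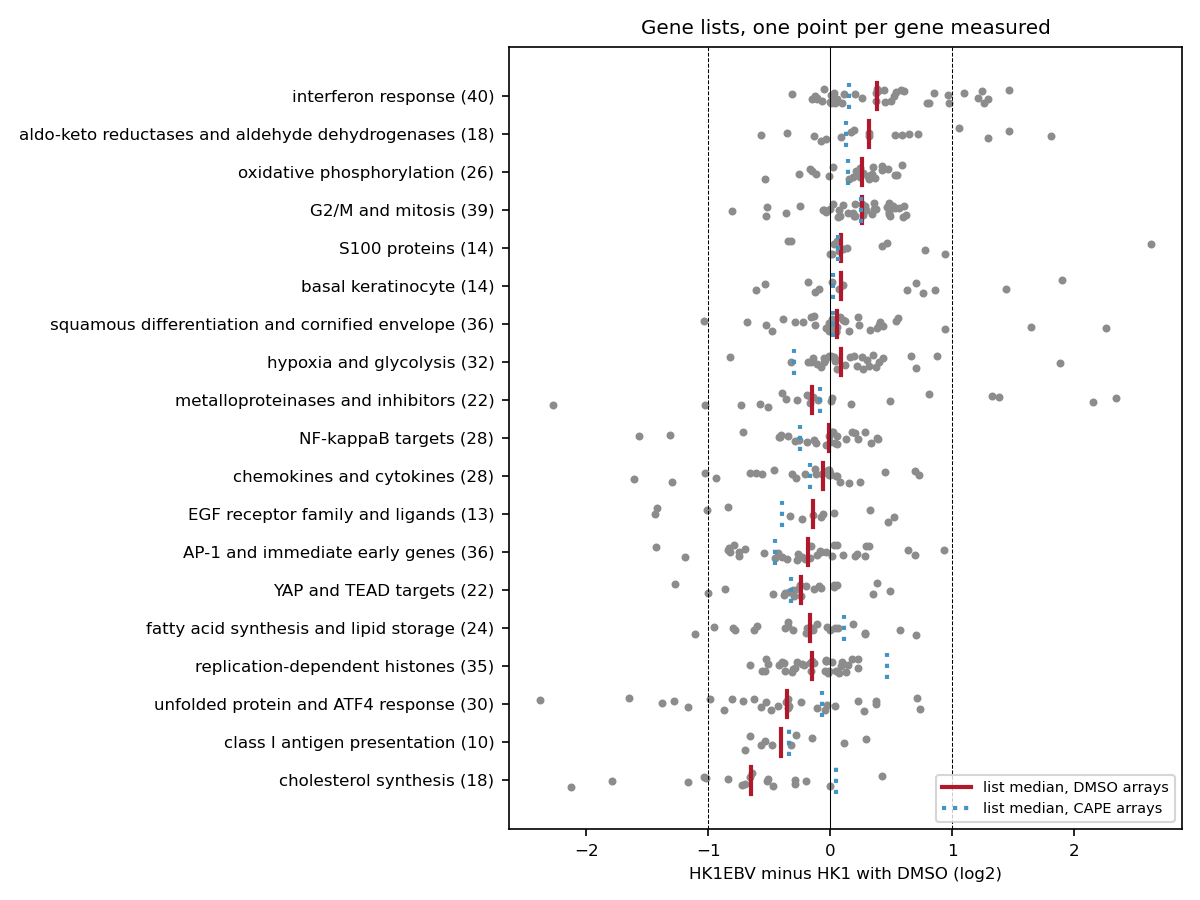
Difference between the lines with DMSO in log2 units for the members of 19 gene lists, 1 grey point per gene compared, with the number compared in brackets, a red bar at the DMSO median, a dotted blue bar at the CAPE median and dashed lines at 2-fold. The interferon list has its median at 0.38 and cholesterol synthesis at -0.65, where the CAPE median is 0.05.

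Genes known from nasopharyngeal carcinoma, as targets of mutation, deletion or promoter methylation, formed a list of which 22 were compared. Of these 0 were 2-fold apart, 19 were below 0 and the median was -0.22 (-0.18 with CAPE). TNFRSF19, at a locus of inherited risk and on chromosome 13, stood at 3.16 and 2.43. TGFBR2, a receptor gene of TGF-β, was at 5.18 and 5.74, MECOM at 4.76 and 4.22, and TRAF3, a brake on NF-κB, at 5.33 and 4.83. The other NF-κB inhibitor genes CYLD and NFKBIA differed by -0.40 and -0.34, and the receptor gene LTBR by -0.39. The tumour suppressor genes CDKN2A, CDKN2B, RASSF1, BRD7, ZMYND10, DAB2 and PRDM1 differed by -0.18, -0.26, -0.25, -0.25, -0.10, -0.19 and -0.06. CCND1 differed by -0.26 and GSTP1 by -0.41. DAPK1, CADM1, THY1 and BCL2 lay at 1.67 or below on both arrays and differed by -0.02, 0.00, -0.03 and -0.10, and LTF stood at 2.25 and 2.26. CAV1 differed by -0.04.

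Genes used by herpesviruses and other viruses to enter cells had 0 of 12 higher and 1 lower, with 9 below 0 and a median of -0.13 (-0.36 with CAPE). EPHA2, an epithelial receptor of Epstein-Barr virus, stood at 5.93 in HK1 and 5.44 in HK1EBV, and at 5.98 and 4.98 with CAPE. ITGAV, given above, pairs with ITGB6 and ITGB8, which differed by -0.24 and 0.70. Neuropilin 1 (NRP1) was at 5.27 and 4.89, and MYH9 at 8.19 and 8.11. ITGA5, TNFRSF14, CD46, NECTIN1, PVR and BSG differed by -0.01, -0.29, -0.18, 0.19, 0.06 and -0.09.

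The genes 2-fold lower in HK1EBV were not spread evenly over the genome. Chromosome 13 had a median difference of -0.37 (-0.29 with CAPE), with 23 of 253 genes (9.09%) 2-fold lower and 0 higher. With the filter on dim genes at the 50th percentile its median was -0.62. Chromosome 18 had a median of -0.38 (-0.37 with CAPE), with 14 of 205 (6.83%) lower and 0 higher. These chromosomes held 37 of the 148 lower genes (25%) and 3.01% of the genes compared. On the other chromosomes the medians lay between -0.10 on chromosome 8 and 0.13 on chromosome 20. Without chromosomes 13 and 18 and the stretch of chromosome 7 described next, 103 genes were 2-fold lower, 0.700% of 14721. These parts were left out because of their low values here, so a smaller share elsewhere follows from the choice.

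**Figure D4:**
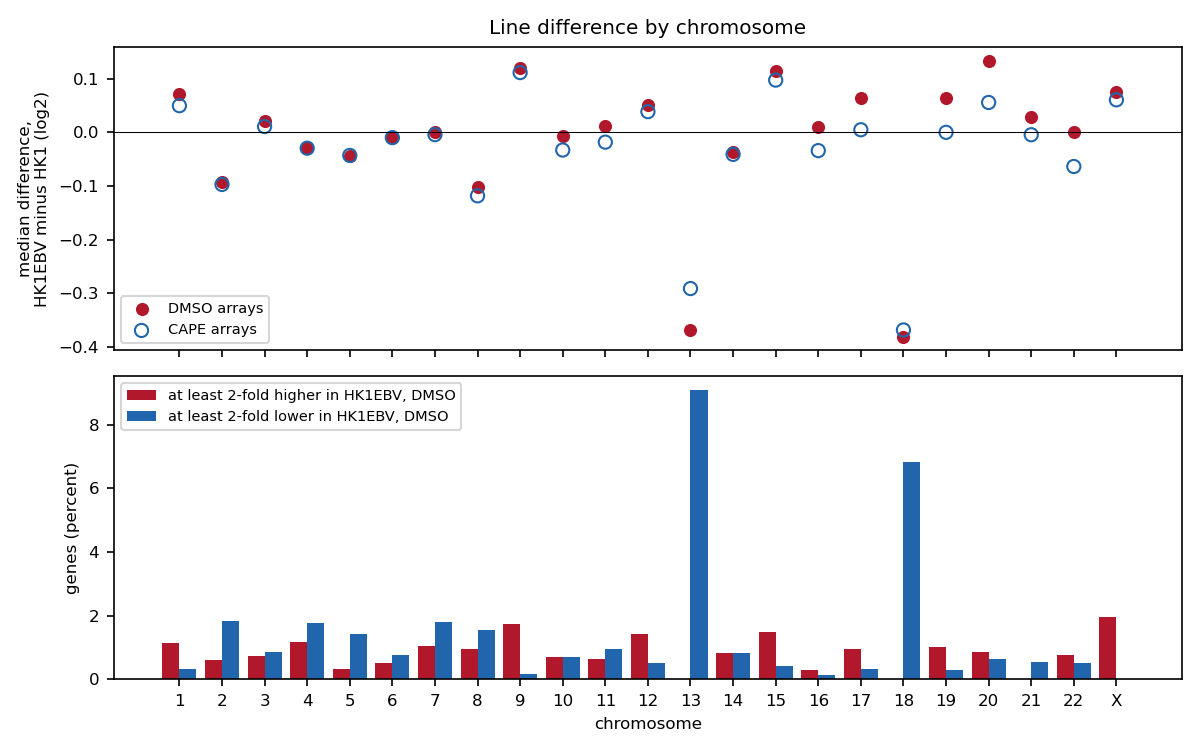
Upper panel, median difference between the lines per chromosome in log2 units, with filled circles for DMSO and open circles for CAPE; lower panel, percent of the genes of each chromosome at least 2-fold higher (red) or lower (blue) in HK1EBV with DMSO. Chromosomes 13 and 18 stand at -0.37 and -0.38, with 9.09% and 6.83% of genes lower and 0 higher.

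Over windows of 15 neighbouring genes, the lowest median was that from POM121L12 to CHCHD2 on chromosome 7, at -1.16 with DMSO and -1.30 with CAPE, with 8 genes 2-fold lower. LANCL2, which binds the plant hormone abscisic acid, stood at 7.29 and 5.29, and VOPP1, beside it, at 7.06 and 5.30. A dimmer probe set of VOPP1 gave -1.73 beside -1.76. Further along, the mitochondrial ribosome gene MRPS17 was at 5.60 and 4.05, NIPSNAP2 at 7.61 and 6.12, the chaperonin gene CCT6A at 8.69 and 7.31 and SUMF2 at 7.45 and 6.06. PSPH, given above among the stress genes, also lies here. CHCHD2, at the end, was at 9.90 and 8.74. On the other side of LANCL2, EGFR differed by -0.07 with DMSO and -0.40 with CAPE. FKBP9P1, ZNF713 and SNORA15 differed by -0.72, -0.82 and -0.55. POM121L12, VSTM2A and PHKG1, at 1.81 or below on both arrays, differed by 0.03, 0.00 and -0.14.

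**Figure D5:**
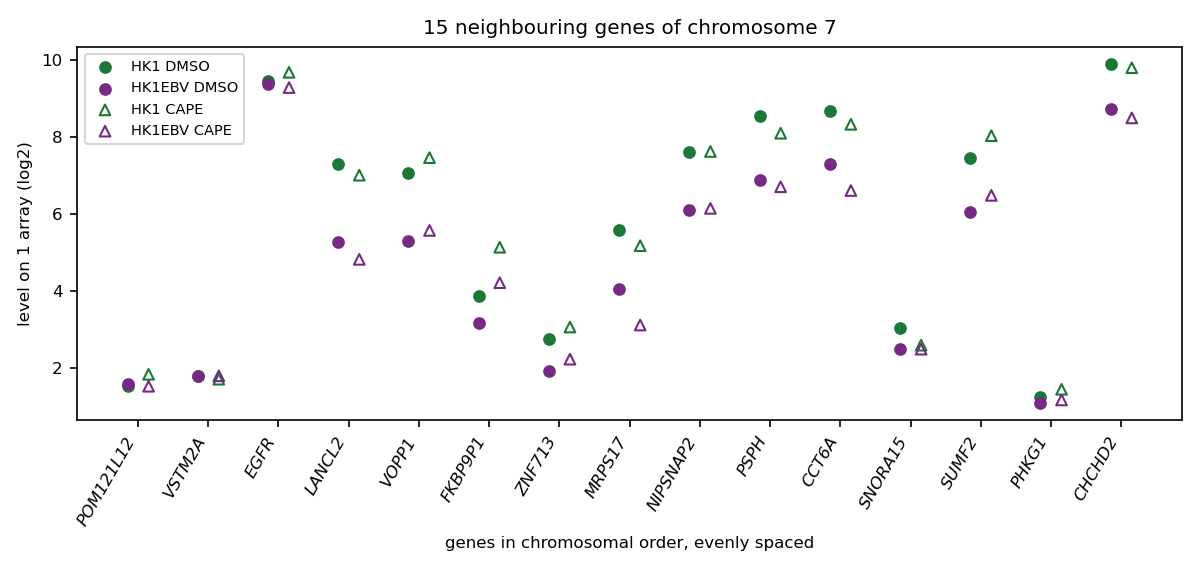
Level on each array in log2 units for 15 neighbouring genes of chromosome 7 in their order along the chromosome, with filled circles for DMSO, open triangles for CAPE, green for HK1 and purple for HK1EBV, and no error bar since each point is 1 array. From LANCL2 to CHCHD2 the bright genes are lower on both HK1EBV arrays, while EGFR is at 9.45 and 9.38 with DMSO.

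The next lowest windows lay on chromosomes 13 and 18. That from PCID2 to CHAMP1 on chromosome 13 had a median of -0.92 (-0.80 with CAPE) and held GAS6, RASA3 at 3.77 and 1.95, the ubiquitin ligase gene CUL4A at 6.55 and 5.62 and the cell cycle factor gene TFDP1 at 9.19 and 8.45. GAS6-AS1, which overlaps GAS6, differed by 0.46. The window from MAPRE2 to TPGS2 on chromosome 18 had a median of -0.80 (-0.65), with MAPRE2, a microtubule-end protein gene, at 5.14 and 3.48 and GALNT1, which starts O-glycans, at 5.58 and 4.04. On chromosome 13 the windows from TM9SF2 to ARGLU1 and from TGDS to UBAC2 had medians of -0.78 (-0.34) and -0.74 (-0.53), with EFNB2, an ephrin gene, at 5.73 and 4.94 and GPR180 at 5.87 and 4.67.

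No window was as far above 0. The highest, from IDH2 to HDDC3 on chromosome 15, had a median of 0.51 (0.22 with CAPE), with 2 of 15 genes 2-fold higher, the mitochondrial isocitrate dehydrogenase gene IDH2 at 3.75 and 4.82 and the protease gene FURIN at 4.06 and 5.15. The next, from USP38 to PRMT9 on chromosome 4, stood at 0.50 (0.55), with PRMT9, an arginine methyltransferase gene, at 2.86 and 4.12. A window on chromosome 17 from CAMKK1 to MED11 stood at 0.49 (0.17), and MED11, of the mediator complex, was at 4.24 and 5.30. On chromosome 15 the windows from SEMA7A to COX5A and from TSPAN3 to CTSH both stood at 0.48 (0.29 and 0.27), with MPI, a mannose metabolism gene, at 3.97 and 5.02, and CTSH, a cathepsin gene, at 7.05 and 7.84.

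Genes apart with DMSO whose CAPE difference had the other sign were few. Among the genes 2-fold higher 3 of 136 had the other sign, NDRG1, PEAK1 and INHBA, and among the lower ones 2 of 148, VIPR1 and MSMO1. PEAK1, for a pseudokinase of the cytoskeleton, stood at 2.68 and 3.70 with DMSO and at 2.97 and 2.82 with CAPE. VIPR1, a neuropeptide receptor gene, stood at 4.43 and 3.32, and at 3.68 and 3.98. TMEM45A, at 3.27 and 4.27, and ALG1L1P, a pseudogene at 2.61 and 3.61, were just short of 2-fold higher, and RHOBTB3, at 7.45 and 6.52, of 2-fold lower. In TMEM45A both CAPE arrays, at 5.75 and 5.55, lay above both DMSO arrays.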

How the data were processed

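Total RNA from 4 cultures was hybridised to single-colour arrays, 1 for each line and treatment, per the labels' protocols. The authors deposited values made by RMA, per the submitters' processing notes, and these were taken as log2. RMA corrects background, gives all arrays one distribution and summarises probes. It gives log2 values, but the base, a shift of the scale, later centring and the version are unstated in the sources used here. Identical values on several arrays occurred in 2643 probe sets, where small differences may be hidden. Of 25800 probe sets, 18612 named 1 gene in the platform's annotation, 954 several and 6234 none. Names were checked against RefSeq, where 18583 probe sets matched, and gene order came from the same table.

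Differences and ratios were computed with Python 3.11.15, numpy 2.4.6 and pandas 2.3.3, and figures with matplotlib 3.10.9. The counting step recovered 100 of 100 raised and 100 of 100 lowered genes in simulated data of 15198 genes. The shifts there were larger than the threshold, with very little noise, in bright genes with 1 probe set. Full recovery was thus fixed in advance, and it checks the counting only, not how firm the real differences are. Genes at least 2-fold apart were counted, with no test, and the number of arrays, 1 per group, limits the precision of every value. Named were the 15 highest and 15 lowest genes, the 5 highest and 5 lowest with the other sign with CAPE, up to 4 genes per list by size of difference, genes of the windows, and all of the nasopharyngeal carcinoma and virus entry lists. Genes outside this rule are given as named after their values were seen, or complete a count of list members past 2-fold. The comparison, lists and rule were chosen with earlier results of these data known. The alternatives were other filters, scalings, probe set rules and fold thresholds.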

Additional observations from a re-analysis of the deposited data

Results flagged for a closer look

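Several genes taken by the rule for named genes, markers and window members among them, differed one way with DMSO and the other way with CAPE, by at least 0.1 each, and whether these differences differ was not tested, since each rests on 1 pair of arrays. The largest was NDRG1, at 1.89 with DMSO and -0.84 with CAPE. Also above 0 with DMSO were PEAK1 at 1.02 and -0.15, TMEM45A at 0.997 and -0.19, ALG1L1P at 0.99 and -0.16, TP53I3 at 0.88 and -0.28 and ENO2 at 0.87 and -0.37. Below 0 with DMSO were VIPR1 at -1.11 and 0.31, ASNS at -0.98 and 0.37, SCD at -0.95 and 0.52, FABP4 at -0.80 and 0.20, LPIN1 at -0.78 and 0.30 and SLC30A1 at -0.62 and 0.17.

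Among smaller differences NDUFB3 gave 0.53 and -0.22, CYP1A2 0.46 and -0.14, CDH1 0.40 and -0.13, ALOX15 0.35 and -0.23, SEMA4B 0.24 and -0.70 and CTAG2 0.23 and -0.39. NECTIN1 gave 0.19 and -0.58, SPNS2 0.18 and -0.22, VWF 0.14 and -0.18, MIR187 0.13 and -0.15, CHRNB4 0.12 and -0.15 and ZNF827 0.10 and -0.47. In the other direction the histone genes H3C12, H2AC12 and H2AC13 gave -0.56 and 0.36, -0.53 and 0.59, and -0.52 and 0.16. EPCAM gave -0.25 and 0.47, HLA-DPA1 -0.22 and 0.26, SCGB1A1 -0.21 and 0.36, CDKN2A -0.18 and 0.28, CD46 -0.18 and 0.39 and DZIP1 -0.14 and 0.32. A list median with the other sign was seen for fatty acid synthesis and lipid storage, at -0.17 and 0.12, and for replication-dependent histones, at -0.15 and 0.47.

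Probe sets left out of the comparison also differed between the lines with DMSO. Of 816 that name several genes and passed the filter, 9 (1.10%) were at least 2-fold apart, 6 higher and 3 lower in HK1EBV. Of 3102 that name no gene, 43 (1.39%) were, 13 higher and 30 lower, with differences from -4.22 to 3.55.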

How the results depend on the processing

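The counts followed the threshold. At 1.5-fold 669 genes were higher and 602 lower in HK1EBV with DMSO, and at 3-fold 31 and 29, against 136 and 148 at 2-fold. Genes past the threshold in both pairs of arrays numbered 650 at 1.5-fold and 31 at 3-fold, against 141. Without a filter, with a filter at the 50th percentile, with arrays shifted to one median, after quantile normalization, with probe sets of a gene averaged, or with the probe set and filter taken from the DMSO arrays, the higher genes numbered 118 to 137 and the lower ones 142 to 151. The median of chromosome 13 was -0.62 with the filter at the 50th percentile, against -0.37, a setting that leaves fewer genes compared. The median of the leukocyte markers was 0.61 there, where 1 of them, CD68, was left. The limit for a move was 0.223, the standard deviation over genes of the DMSO minus the CAPE difference, divided by the square root of 2. Single genes were not compared at other fold thresholds, or with the probe set and filter taken from the DMSO arrays. In the other settings each of the 381 named genes moved by less than 0.223 wherever it was kept. Most settings could not move a single gene, so this says little about how firm its difference is. A filter only keeps or drops a gene, and a shift of arrays moves all genes alike. Averaging touches only genes with several probe sets, which leaves quantile normalization. The filter at the 50th percentile left 314 of the named genes. No paired analysis was possible because the DMSO comparison has 1 array a group and the labels give no replicate numbers, so no array could be left out either. The treatments do pair the lines, but a fit over both pairs asks about the line difference across treatments and was not run. Dim genes limit the lower end, since a fall from a level near the filter may not show.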
